A study of Mus musculus with 7 samples.

Results

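Fibroblast growth factor (FGF) receptors and the genes that modulate or report their signalling were followed through the cell types of the embryonic mouse nose. The group holds 10 genes, chosen by name with earlier results of these data known, of the 30355 gene symbols that the libraries have in common. It comprises the receptors Fgfr1, Fgfr2 and Fgfr3, the membrane modulators Il17rd and Flrt3, the feedback inhibitors Spry1, Spry2, Spry4 and Dusp6, and the transcription factor gene Etv4.

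Noses at embryonic day 14.5 were dissociated, frozen and read by droplet single-cell RNA sequencing, in which each captured mRNA molecule is counted by a unique molecular identifier (UMI). There were 5 wild-type (WT) libraries of the CD1 IGS strain, and 2 libraries of the ProKR2iCre/R26tdTomato genotype. The latter strain joins the allele Prokr2em1(cre)Cfe on B6;SJL with the reporter Cg-Gt(ROSA)26Sortm14(CAG-tdTomato)Hze. In it, Cre made from the Prokr2 locus switches on a tdTomato reporter, which marks cells that have expressed Cre at any earlier stage. Both of those libraries came from the suspension of 1 nose, part of which was sorted, and the labels do not say which library holds the sorted cells, so they are given as ProKR2iCre/R26tdTomato library 1 and library 2 and were never averaged or tested. The labels name no treatment in any group. WT replicate 3 shared 7386 of its barcodes with WT replicate 4 and was left out, which leaves 4 independent WT captures (replicates 1, 2, 4 and 5).

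FGFs bind receptor tyrosine kinases together with heparan sulfate on the cell surface, and the activated receptors signal through adaptors, Ras and the MAP kinases ERK1 and ERK2. ERK activity switches on ETS transcription factors such as Etv4 and also the inhibitors that shut the pathway down, among them the Sprouty proteins and the ERK phosphatase Dusp6. In the developing face and nose FGF signals pass between epithelium and the neural-crest mesenchyme beneath it, and in cartilage and bone they set the pace of growth.

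After cells with fewer than 500 genes or over 10% of UMIs from mitochondrial genes had been removed, there were 7790, 10496, 7029 and 3250 cells in WT replicates 1, 2, 4 and 5 and 1789 and 1111 cells in ProKR2iCre/R26tdTomato libraries 1 and 2. Median UMIs per kept cell ran from 5126.5 to 13692 over the 6 libraries. Between 71.0% and 84.7% of the kept cells met 1 marker gate, a set of genes that defines a cell type. Of 35 further markers that were not used for gating, 31 were higher in their own class than in the other gated cells in every WT capture tested. The exceptions were Col1a1 in mesenchyme, Gpx6 in sustentacular cells (0 to 1.86 CPM, UMI counts scaled to a common total) and the late bone genes Bglap and Dmp1 in the osteoblast class. Bglap and Dmp1 were at 87.2 and 71.1 CPM there in WT replicate 1, at 18.2 and 17.3 CPM in WT replicate 2, at 1.05 and 1.57 CPM in WT replicate 5 and at 0 in WT replicate 4. The erythroid gate, whose cells should lack all members, still held 6 Fgfr1 UMIs (26.9 CPM) and 6 Fgfr2 UMIs (26.9 CPM) in WT replicate 1, and 8 Fgfr1 UMIs (31.3 CPM), 5 Fgfr2 UMIs (19.6 CPM) and 6 Flrt3 UMIs (23.5 CPM) in WT replicate 5. These values rest on 14 and 16 cells, and in WT replicates 2 and 4 the gate held 1 cell each, so no such level was measured there. Other classes of the same libraries lay below them: Fgfr2 in the glia of WT replicate 1 was at 2.06 CPM (exact Poisson 95% interval 0.42 to 6.01), beside an interval of 9.89 to 58.6 CPM in the erythroid gate. For Fgfr2 in WT replicate 1 the erythroid value was thus not shared by all classes. Fgfr1 of that library was at or below its erythroid value in 8 classes. Whether the erythroid values are a background was not tested, and no level is set aside by them.

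WT replicate 1 stood apart for some members. Its Fgfr2 level was the lowest of the captures in 12 of 12 classes, and the mean of the other captures lay 3.38 to 20.2 times higher, the last on 3 UMIs in glia. In the 5 classes where it exceeded 26.9 CPM the ratio was 3.38 to 4.35, and in the other 7 it was at 2.06 to 16.1 CPM. Over all classes the same comparison gave a median of 2.13 for Il17rd, 2.01 for Spry2, 1.74 for Fgfr1 and 1.67 for Spry1, but 1.09 for Dusp6 and 0.82 for Fgfr3. This library is also the one whose file header names another Cell Ranger version than the other WT libraries, 6.0.1 against 7.0.0, and the part of that difference in the levels was not tested. Every test below compares classes within captures, and values without WT replicate 1 are given wherever a call was lost.

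Most members lie on different chromosomes (GRCm38, GENCODE gene spans). Fgfr1 (ENSMUSG00000031565) lies on chr8:25513654-25575718, Fgfr2 (ENSMUSG00000030849) on chr7:130162451-133123350 on the minus strand, and Fgfr3 (ENSMUSG00000054252) on chr5:33721674-33737068. Il17rd (ENSMUSG00000040717) lies on chr14:27038941-27107286, and Spry2 (ENSMUSG00000022114) on the same chromosome at 105891947-105896819 on the minus strand. Flrt3 (ENSMUSG00000051379) occupies chr2:140650914-140671469 on the minus strand, Spry1 (ENSMUSG00000037211) chr3:37639947-37644598, Dusp6 (ENSMUSG00000019960) chr10:99263231-99267489 and Etv4 (ENSMUSG00000017724) chr11:101769742-101785371 on the minus strand. Spry4 (ENSMUSG00000024427) is described by its counts only.

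The RefSeq table of promoters (GRCm38.p6) gave 8 transcription starts of 7 of these members, Fgfr2, Fgfr3, Il17rd, Flrt3, Spry1, Spry2 and Dusp6. Stretches upstream of 3 of these starts are shown. They belong to Il17rd and Spry1, which were both highest in the sustentacular and simple epithelial classes, and Fgfr3, whose level was highest in cartilage. Capitals mark the GC box, GGGCGG or its reverse complement CCGCCC, a motif of many promoters. The 3 genes shown are the only ones of the 7 with a GC box before a listed start, so the display links no motif to a level. Each stretch ends at the base before the annotated gene. For Il17rd and Fgfr3 that base lies upstream of the listed start, so only 190 and 200 bases are shown. All 3 are on the plus strand, at chr14:27038751-27038940 (Il17rd), chr3:37639697-37639946 (Spry1) and chr5:33721474-33721673 (Fgfr3, the first of its 2 listed starts).
Il17rd: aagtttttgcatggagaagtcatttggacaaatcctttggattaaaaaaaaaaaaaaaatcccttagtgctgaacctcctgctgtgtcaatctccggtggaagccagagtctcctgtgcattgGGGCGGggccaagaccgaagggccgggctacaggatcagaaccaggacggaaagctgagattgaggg
Spry1: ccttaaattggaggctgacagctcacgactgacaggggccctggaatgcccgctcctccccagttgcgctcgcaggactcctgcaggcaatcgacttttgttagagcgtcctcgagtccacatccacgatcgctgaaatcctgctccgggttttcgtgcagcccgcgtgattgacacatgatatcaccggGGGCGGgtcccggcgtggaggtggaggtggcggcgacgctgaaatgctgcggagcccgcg
Fgfr3: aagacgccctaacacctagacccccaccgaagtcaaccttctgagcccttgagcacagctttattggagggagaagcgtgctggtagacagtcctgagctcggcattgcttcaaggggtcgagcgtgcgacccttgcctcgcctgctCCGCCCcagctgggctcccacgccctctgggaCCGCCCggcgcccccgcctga

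Motifs were searched on both strands of the 250 bases before each start. A window can reach past a printed stretch, as it does for a second box of Il17rd. The GC box was present at 4 of the 8 member starts, those of Il17rd and Spry1 and both of Fgfr3, beside 32.74% of the 32851 starts in the table. None of the 8 starts held the ETS motif CCGGAAGT (in 2.88% of all starts) or its first 7 letters, CCGGAAG (6.91%). None held the Capicua motifs TGAATGAA (1.08%) or TGAATGGA (1.01%), or the AP-1 motif TGACTCA (4.46%). These counts describe letters in a short window.

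Levels were formed by summing UMIs over the cells of a class in a capture, as CPM. The fit held 12 classes with at least 20 cells in at least 3 captures, 45 sums in all. A 3′ count is not a level per transcript length, so levels are compared between classes for 1 gene and never between genes. The class with the highest mean was cartilage for Fgfr1 and Fgfr3, basal epithelium for Fgfr2, the sustentacular class for Il17rd and Spry1, glia for Flrt3, pericytes for Spry2 and Spry4, endothelium for Dusp6 and olfactory neurons for Etv4. Along these orders, 105 of 110 neighbouring pairs of classes overlapped in their capture values. The 5 steps without overlap were Fgfr1 between mesenchyme and sustentacular cells (2.53 times), Fgfr3 between cartilage and osteoblasts (3.55 times) and between basal and simple epithelium (2.48 times), Flrt3 between olfactory neurons and endothelium (1.77 times), and Dusp6 between mesenchyme and cartilage (1.98 times). The Flrt3 step is between low levels (12.5 and 7.06 CPM).

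**Figure D1:**
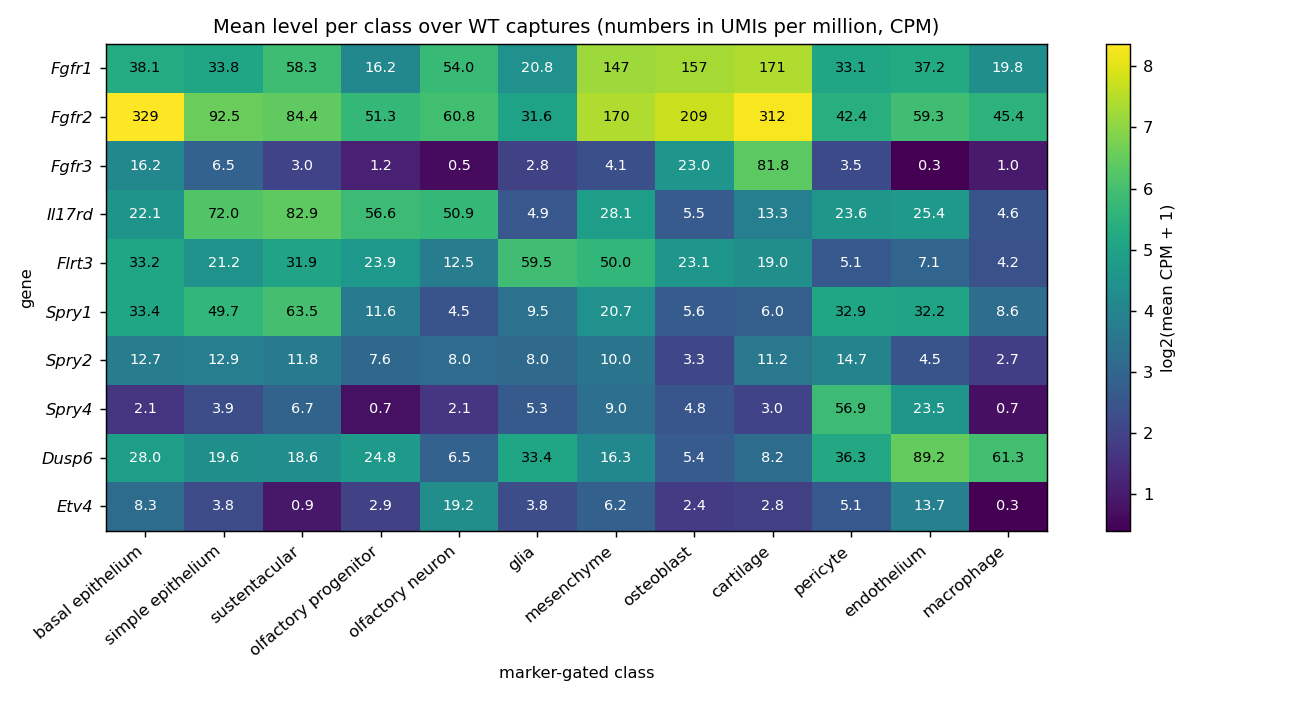
Mean level of each of the 10 members (rows) in the 12 marker-gated WT classes (columns), printed in CPM and coloured by log2 of the mean CPM + 1, from dark (low) to bright (high). Rows are to be read one at a time: Fgfr3 is brightest in cartilage (81.8 CPM), Spry4 in pericytes (56.9 CPM) and Dusp6 in endothelium (89.2 CPM).

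Each class was then compared with the mean of the other 11 by edgeR's quasi-likelihood test with the capture as a block, and a gene was called at an adjusted p under 0.05 (Benjamini-Hochberg over all 13506 genes tested) with a log2 fold change of at least 1 in size. All 10 members passed the filter on low counts. They were called in 56 of 120 tests, 29 higher and 27 lower, where 18.1% of all gene tests were called, 11.5% higher and 6.64% lower. Members and the named pairs below were chosen with earlier results of these data known, so such counts describe the group and do not test it. By class, members called over 10 tested were 8 in macrophages (28.7% of all genes called there), 7 in osteoblasts (13.9%), 6 in endothelium (20.7%), 6 in olfactory neurons (30.1%), 5 in basal epithelium (14.9%), 5 in cartilage (15.1%), 4 in glia (13%), 4 in pericytes (11.7%), 3 in mesenchyme (14.3%), 3 in olfactory progenitors (20.3%), 3 in sustentacular cells (17.8%) and 2 in simple epithelium (17.2%). The split by direction was uneven between classes: all 5 calls in basal epithelium were higher (9.87% of all genes were), as were all 3 in mesenchyme (11.5%), while 7 of the 8 in macrophages were lower (14.4%). Of the calls in basal epithelium only that of Fgfr2 was kept under every alternative run. So were only Fgfr1 and Flrt3 in mesenchyme, and only Fgfr1, Il17rd and Flrt3 of the lower calls in macrophages. The median log2 fold change of the 10 members was -1.74 in macrophages, where that of all genes was -0.12, and 0.91 in basal epithelium, where that of all genes was 0.05.

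Fgfr1, which has mesenchymal splice forms that bind many FGFs, was highest in the 3 skeletal and connective-tissue classes. In WT replicates 1, 2, 4 and 5 its level was 78.9, 171.4, 211.3 and 223.6 CPM in cartilage, 88.8, 124.6, 238.5 and 174.3 CPM in osteoblasts and 91.7, 122.6, 204.3 and 171.3 CPM in mesenchyme. The 3 classes overlapped with each other, and the highest captures elsewhere were WT replicate 5 in olfactory neurons (99.2 CPM) and WT replicate 4 in sustentacular cells (88.5 CPM). The fitted log2 fold change against the other classes was 2.01 (SE 0.13, adjusted p = 3.78e-16, n = 4 captures) in cartilage, 1.94 (SE 0.14, adjusted p = 7.81e-15) in osteoblasts and 1.68 (SE 0.13, adjusted p = 8.75e-14) in mesenchyme, and these 3 calls were kept under every alternative run, the last at 1.09 in a fit of the 6 classes with at least 50 cells per sum. Fgfr1 was called lower in olfactory progenitors (16.2 CPM ± 8.02 SD, n = 3, log2 fold change -1.74), macrophages (19.8 CPM ± 8.78 SD, n = 4, -1.18) and glia (20.8 CPM ± 4.31 SD, n = 4, -1.04), beside 26.9 and 31.3 CPM in the erythroid gates of WT replicates 1 and 5. The glia call was lost without WT replicate 4 (-0.88) or WT replicate 5 (-0.90), with 1 more marker in every gate (-0.90), with a stricter cell filter (-0.97), without cells of high depth, those above 2 times their library's median UMIs (-0.95), and with WT replicate 3 in place of 4 (-0.87). Here and below, the class fit without cells of high depth held only 10 classes and 37 sums. That with 1 more marker held 11 classes and 40 sums, so in both the other classes compared differ too.

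Fgfr2, whose epithelial splice form receives FGF10 and FGF7 from mesenchyme, was highest in basal epithelium and cartilage. Its level was 118.2, 361.9, 455.2 and 380.8 CPM in basal epithelium and 91.8, 331.5, 408.7 and 416.5 CPM in cartilage in WT replicates 1, 2, 4 and 5. WT replicate 1 was far below the other 3 in both, and the classes overlapped with each other. Against the other classes it was higher by 2.14 on the log2 scale (SE 0.14, adjusted p = 1.88e-16) in basal epithelium and 2.02 (SE 0.13, adjusted p = 1.23e-16) in cartilage. Both calls were kept under every alternative run, but among the 6 classes with at least 50 cells per sum the values were 1.22 and 1.14. Splice forms are not resolved by these counts. In osteoblasts Fgfr2 was also higher, at 209 CPM ± 116 SD (n = 4, log2 fold change 1.43, adjusted p = 5.33e-11), a call lost in that smaller fit (0.49). It was lower in glia (31.6 CPM ± 21.7 SD, n = 4, log2 fold change -1.88, adjusted p = 2.25e-07) and pericytes (42.4 CPM ± 34.8 SD, n = 3, -1.40, adjusted p = 0.00149), and without the capture block these 2 calls were lost, with adjusted p-values of 0.0609 and 0.267.

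Fgfr3, which restrains growth-plate cartilage, had the steepest order of the receptors. Cartilage held 96.3, 76.1, 71.5 and 83.5 CPM in WT replicates 1, 2, 4 and 5, osteoblasts 17.2, 18.6, 31.2 and 25.1 CPM and basal epithelium 8.9, 15.5, 29.3 and 11.3 CPM. The cartilage captures lay above every capture of every other class, and osteoblasts and basal epithelium overlapped. The log2 fold change was 4.85 in cartilage (SE 0.17, adjusted p = 6.85e-25), 2.86 in osteoblasts (SE 0.24, adjusted p = 5.17e-13, and 1.72 among the 6 classes with at least 50 cells per sum) and 2.05 in basal epithelium (SE 0.29, adjusted p = 1.93e-07, and 0.78 among those 6 classes). In mesenchyme the level was 3.8, 3.9, 4.6 and 4.1 CPM. The share of cartilage cells with an Fgfr3 UMI was 53.6%, 28.5%, 33.5% and 49.5%, or 14.1%, 12.9%, 11.4% and 16.2% when each cell was thinned to 2000 UMIs, beside 0.72% to 0.99% of thinned mesenchymal cells. Fgfr3 was called lower in olfactory neurons, macrophages and endothelium (adjusted p = 0.0117, 0.0188 and 0.00902), but on 2, 2 and 4 UMIs in all captures together. Those 3 calls were lost when 1 capture was left out. Without WT replicate 1 endothelium held no Fgfr3 UMI, so the mean log level of the other classes had no lower bound and olfactory neurons and macrophages could not be tested against it. The adjusted p was 0.0581 for macrophages without WT replicate 5 and 0.0782 for endothelium without WT replicate 2. It was 0.0659 for macrophages with a stricter cell filter and 0.143 for endothelium without cells of high depth.

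**Figure D2:**
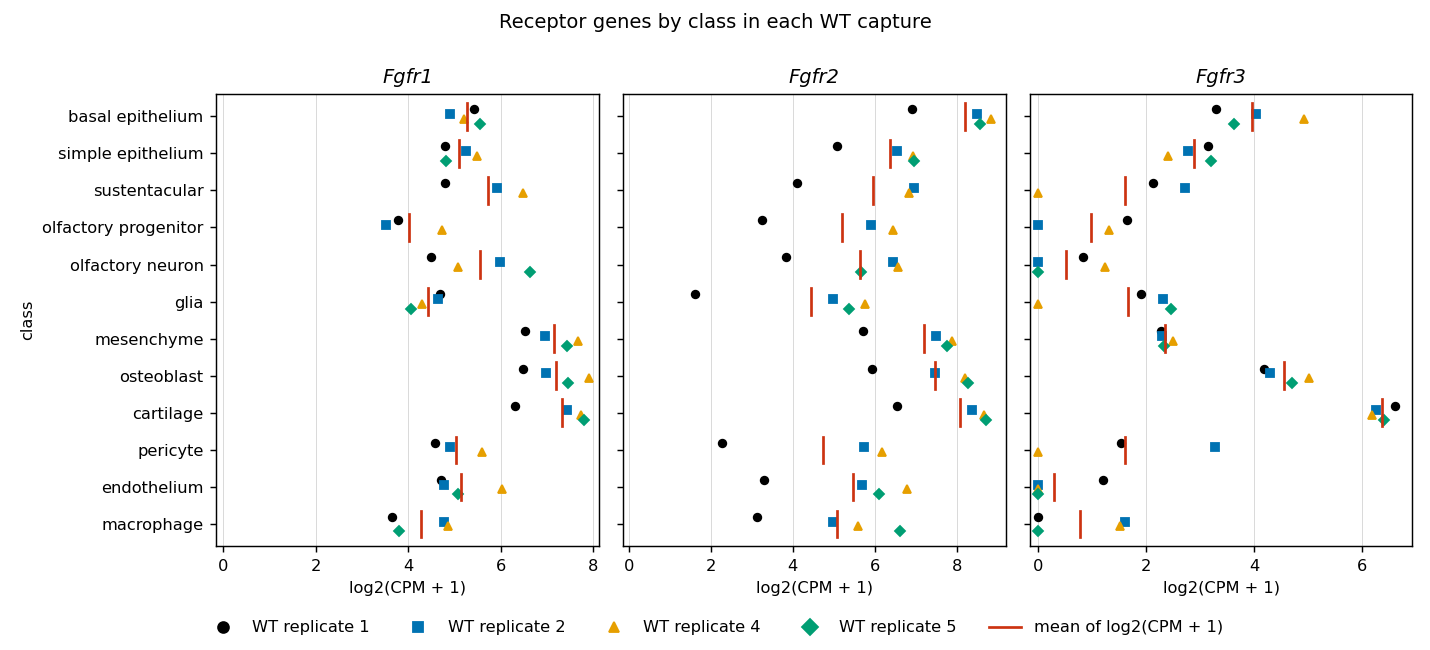
Levels of Fgfr1, Fgfr2 and Fgfr3, as log2(CPM + 1), in the 12 WT classes, 1 point per capture with a symbol for each replicate and a bar at the mean of log2(CPM + 1). WT replicate 1 is the lowest Fgfr2 point in all 12 classes, and the 4 cartilage points of Fgfr3 lie above all other classes.

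Il17rd, also called Sef, is a membrane protein that dampens FGF and MAP kinase signalling. It was highest in simple epithelium, in the sustentacular cells that support olfactory neurons, and in the olfactory lineage, with 42.4, 79.1 and 127.1 CPM in sustentacular cells (WT replicates 1, 2 and 4) and 36.2, 80.4, 94.0 and 77.4 CPM in simple epithelium (replicates 1, 2, 4 and 5). Olfactory progenitors held 17.1, 73.4 and 79.2 CPM and olfactory neurons 32.5, 44.5, 62.0 and 64.5 CPM. Captures of these 4 classes overlapped, with WT replicate 1 lowest in each. Il17rd was higher by 2.00 on the log2 scale (SE 0.20, adjusted p = 9.11e-11) in sustentacular cells, 1.79 (SE 0.16, adjusted p = 1.96e-12) in simple epithelium, 1.43 (SE 0.28, adjusted p = 6.71e-05) in progenitors and 1.22 (SE 0.24, adjusted p = 4.57e-05, and 1.85 without cells of high depth) in neurons, all kept under every alternative run. It was lower in osteoblasts (1.7, 3.9, 4.8 and 11.5 CPM, log2 fold change -2.29), macrophages (4.6 CPM mean, -2.19) and glia (9.6, 2.7, 2.7 and 4.5 CPM, -1.80), with adjusted p = 7.35e-09, 4.82e-05 and 0.000387. The glia call was lost without cells of high depth (-0.94, adjusted p = 0.191). The glia value moved to -3.19 without WT replicate 1, and the macrophage value to -3.22 without WT replicate 4 and -3.39 without cells of high depth.

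Flrt3, a leucine-rich transmembrane protein that binds FGF receptors and also acts in cell adhesion, was highest in glia and mesenchyme. Glia held 69.2, 57.4, 66.4 and 45.0 CPM and mesenchyme 39.3, 44.9, 66.2 and 49.7 CPM in WT replicates 1, 2, 4 and 5. The 2 classes overlapped, and both lay above all pericyte, macrophage and endothelial captures (at most 9.1 CPM). Flrt3 had a log2 fold change of 1.88 in glia (SE 0.19, adjusted p = 1.33e-10) and 1.46 in mesenchyme (SE 0.14, adjusted p = 7.72e-12). Basal epithelium was just past the fold limit (33.2 CPM ± 15.8 SD, n = 4, log2 fold change 1.01) and below it without WT replicate 5 (0.70) or, by a small margin, without WT replicate 1 (adjusted p = 0.000379). Without TMM scaling it was at 0.98, by DESeq2 at 0.96, without the capture block at 0.97, with a stricter cell filter at 0.96 and with at least 50 cells per sum at 0.65. The called lower values were -2.06 in pericytes, -1.94 in macrophages and -1.18 in endothelium, of which pericytes lost the call without WT replicate 1 (adjusted p = 0.12) and endothelium without WT replicate 2 (-0.99) or cells of high depth (-1.12, adjusted p = 0.243).

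The Sprouty proteins are intracellular inhibitors of receptor tyrosine kinase signalling that are themselves induced by it. Spry1 shared its leading classes with Il17rd: sustentacular cells held 34.4, 74.4 and 81.7 CPM (WT replicates 1, 2 and 4) and simple epithelium 21.1, 65.9, 62.6 and 49.3 CPM (replicates 1, 2, 4 and 5). These overlapped with each other and with basal epithelium (22.0, 41.6, 19.5 and 50.6 CPM). Spry1 was higher by 1.99 on the log2 scale (SE 0.23, adjusted p = 1.67e-09) in sustentacular cells and 1.60 (SE 0.18, adjusted p = 7.5e-10) in simple epithelium. Endothelium (1.23), basal epithelium (1.10) and pericytes (1.03) were also called higher, but basal epithelium was under the fold limit without WT replicate 5 (0.98), and pericytes lost the call without any 1 of replicates 1, 2 and 4 (adjusted p = 0.159, 0.202 and 0.112), without the capture block (0.0952) and with WT replicate 3 in place of 4 (0.0828). Spry1 was lower in osteoblasts (2.2, 2.6, 4.3 and 13.1 CPM, log2 fold change -1.85, adjusted p = 1.88e-06), in cartilage (4.0, 7.0, 7.3 and 5.6 CPM, -1.60, adjusted p = 4.08e-07) and in olfactory neurons (6.2, 0, 6.9 and 5.0 CPM, -1.74, adjusted p = 0.0014).

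Spry2 varied least of the Sprouty genes by the ratio of its highest to its lowest class mean, from 14.7 CPM in pericytes to 2.70 CPM in macrophages. Its levels in pericytes and in both epithelia were under the fold limit. The lower calls were in macrophages (7 UMIs in all captures, log2 fold change -1.54, adjusted p = 0.00224) and osteoblasts (0.9, 4.8, 2.7 and 4.7 CPM, log2 fold change -1.48, adjusted p = 8.71e-06), and the osteoblast call was kept under every alternative run, while that in macrophages was lost without cells of high depth (adjusted p = 0.0832). In WT replicate 5 the erythroid gate held 3 Spry2 UMIs (11.8 CPM), which is close to most class levels of this gene.

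Spry4 was highest in the 2 vascular classes. Pericytes, the mural cells of small vessels, held 52.3, 37.7 and 80.7 CPM in WT replicates 1, 2 and 4, and endothelium 15.9, 28.4, 40.2 and 9.4 CPM in replicates 1, 2, 4 and 5. The lowest pericyte capture was below the highest endothelial one, and mesenchyme, the next class in the order, held 8.6, 8.2, 7.5 and 11.7 CPM, so that endothelium was above it in 3 of 4 captures and overlapped with it. The log2 fold change was 4.01 (SE 0.29, adjusted p = 2.5e-14) in pericytes, 2.78 (SE 0.28, adjusted p = 3.76e-11) in endothelium and 1.16 (SE 0.23, adjusted p = 5.73e-05) in mesenchyme. The mesenchyme value came under the fold limit with 1 more marker in every gate (0.95) and without cells of high depth (0.99), and was 1.80 with at least 50 cells per sum. Without WT replicate 2 the pericyte value was 4.61. Olfactory neurons, olfactory progenitors and macrophages were called lower on 3, 1 and 2 UMIs in all, and each of those calls was lost without 1 capture, with an adjusted p of 0.25 (neurons) and 0.0773 (progenitors) without WT replicate 1, and 0.171 (progenitors) without WT replicate 4, while without WT replicate 2 progenitors held no Spry4 UMI and neurons and macrophages could not be tested. The macrophage call was also lost without cells of high depth (adjusted p = 0.0729).

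Dusp6, the cytoplasmic phosphatase that removes the activating phosphates from ERK, was highest in endothelium and macrophages. Endothelium held 56.6, 93.3, 118.0 and 88.9 CPM and macrophages 76.8, 69.4, 56.4 and 42.6 CPM in WT replicates 1, 2, 4 and 5, with overlap. Dusp6 had a log2 fold change of 2.23 in endothelium (SE 0.19, adjusted p = 3.88e-13) and 1.96 in macrophages (SE 0.21, adjusted p = 1.12e-10). In macrophages Dusp6 was the 1 member called higher, and 7 members were called lower. The lower calls of Dusp6 were -2.11 in osteoblasts (4.4, 3.5, 6.5 and 7.3 CPM, adjusted p = 1.23e-08), -1.48 in olfactory neurons (12.4, 6.7, 6.9 and 0 CPM, adjusted p = 0.000649, and -2.13 without WT replicate 1) and -1.46 in cartilage (7.7, 9.8, 7.0 and 8.3 CPM, adjusted p = 1.36e-07). Among the 6 classes with at least 50 cells per sum, these were -1.34, -0.64 and -0.63. Mesenchyme, at 15.1, 16.1, 12.5 and 21.5 CPM, was above cartilage in every capture without overlap.

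Etv4, an ETS transcription factor induced by FGF signalling, had its highest mean in olfactory neurons, with 13.9, 51.2, 6.9 and 5.0 CPM in WT replicates 1, 2, 4 and 5. By the median endothelium was above them (12.3 and 10.4 CPM), and olfactory neurons were higher than endothelium in 2 of 4 captures. An Etv4 UMI was found in few of the neurons, 5.76%, 6.49%, 2.78% and 4.35% of them, so that the high level of WT replicate 2 came from a small share of its cells. WT replicate 2 was far above the others in level, and the other 3 captures overlapped with endothelium (6.8, 11.2, 13.4 and 23.4 CPM) and basal epithelium (13.8, 7.5, 0 and 11.9 CPM). The log2 fold change in olfactory neurons was 2.36 (SE 0.42, adjusted p = 8.05e-06), and 1.41 (adjusted p = 0.0266) without WT replicate 2 and 3.04 without WT replicate 1. In endothelium it was 1.75 (SE 0.43, adjusted p = 0.000993), 2.58 without WT replicate 1, and not called once cells of high depth were left out (1.64, adjusted p = 0.216). The basal epithelium call (1.32, adjusted p = 0.00355) was lost without WT replicate 1 (1.34, adjusted p = 0.0822), without cells of high depth (0.65, adjusted p = 0.336) and with at least 50 cells per sum (0.89, adjusted p = 0.0527). Etv4 was called lower in macrophages on 2 UMIs and in sustentacular cells on 5 UMIs. The macrophage call was lost without any 1 of the 4 captures (adjusted p from 0.0513 to 0.0821), and the sustentacular call without WT replicate 2 or 4 (0.114 and 0.128). Macrophages also lost it without cells of high depth (0.135), and sustentacular cells without TMM scaling (0.0558) or the capture block (0.0602). Without WT replicate 1 macrophages held no Etv4 UMI and sustentacular cells could not be tested.

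**Figure D3:**
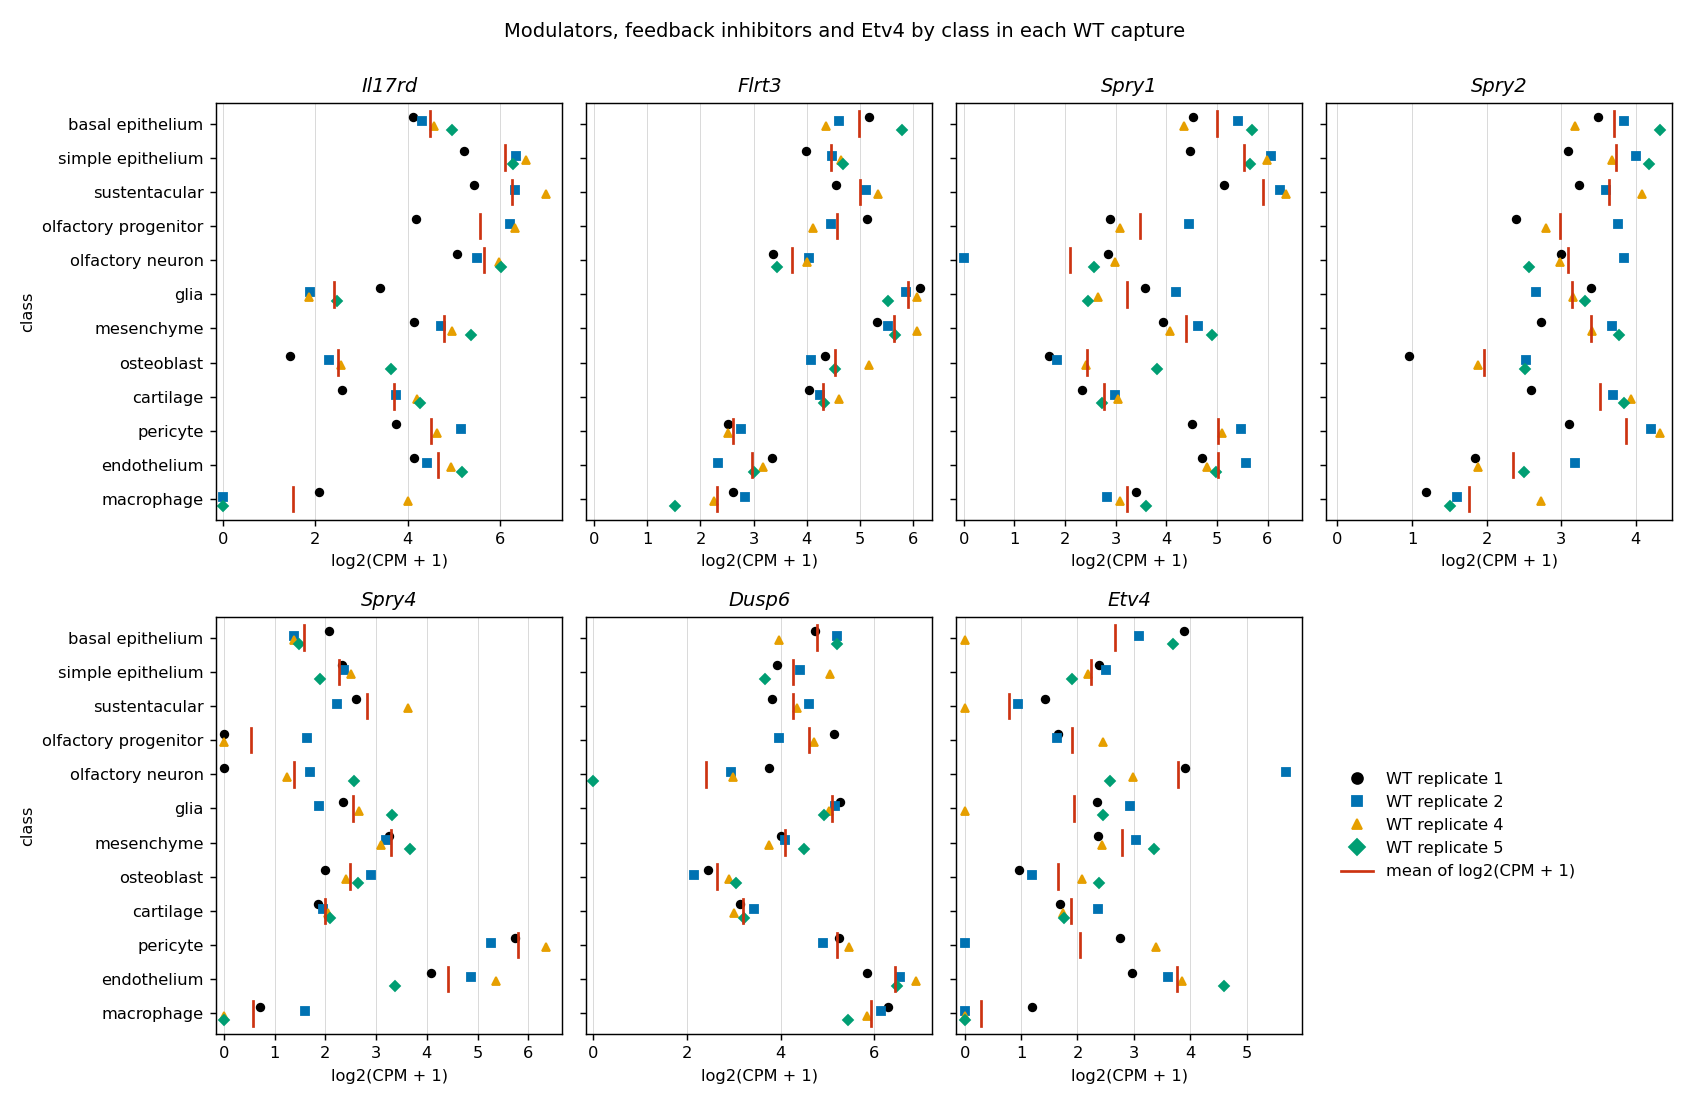
Levels of Il17rd, Flrt3, Spry1, Spry2, Spry4, Dusp6 and Etv4, as log2(CPM + 1), in the 12 WT classes, 1 point per capture with a symbol for each replicate and a bar at the mean of log2(CPM + 1). Spry4 is highest in pericytes (37.7 to 80.7 CPM), and the single high Etv4 point in olfactory neurons is WT replicate 2 (51.2 CPM).

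**Figure D4:**
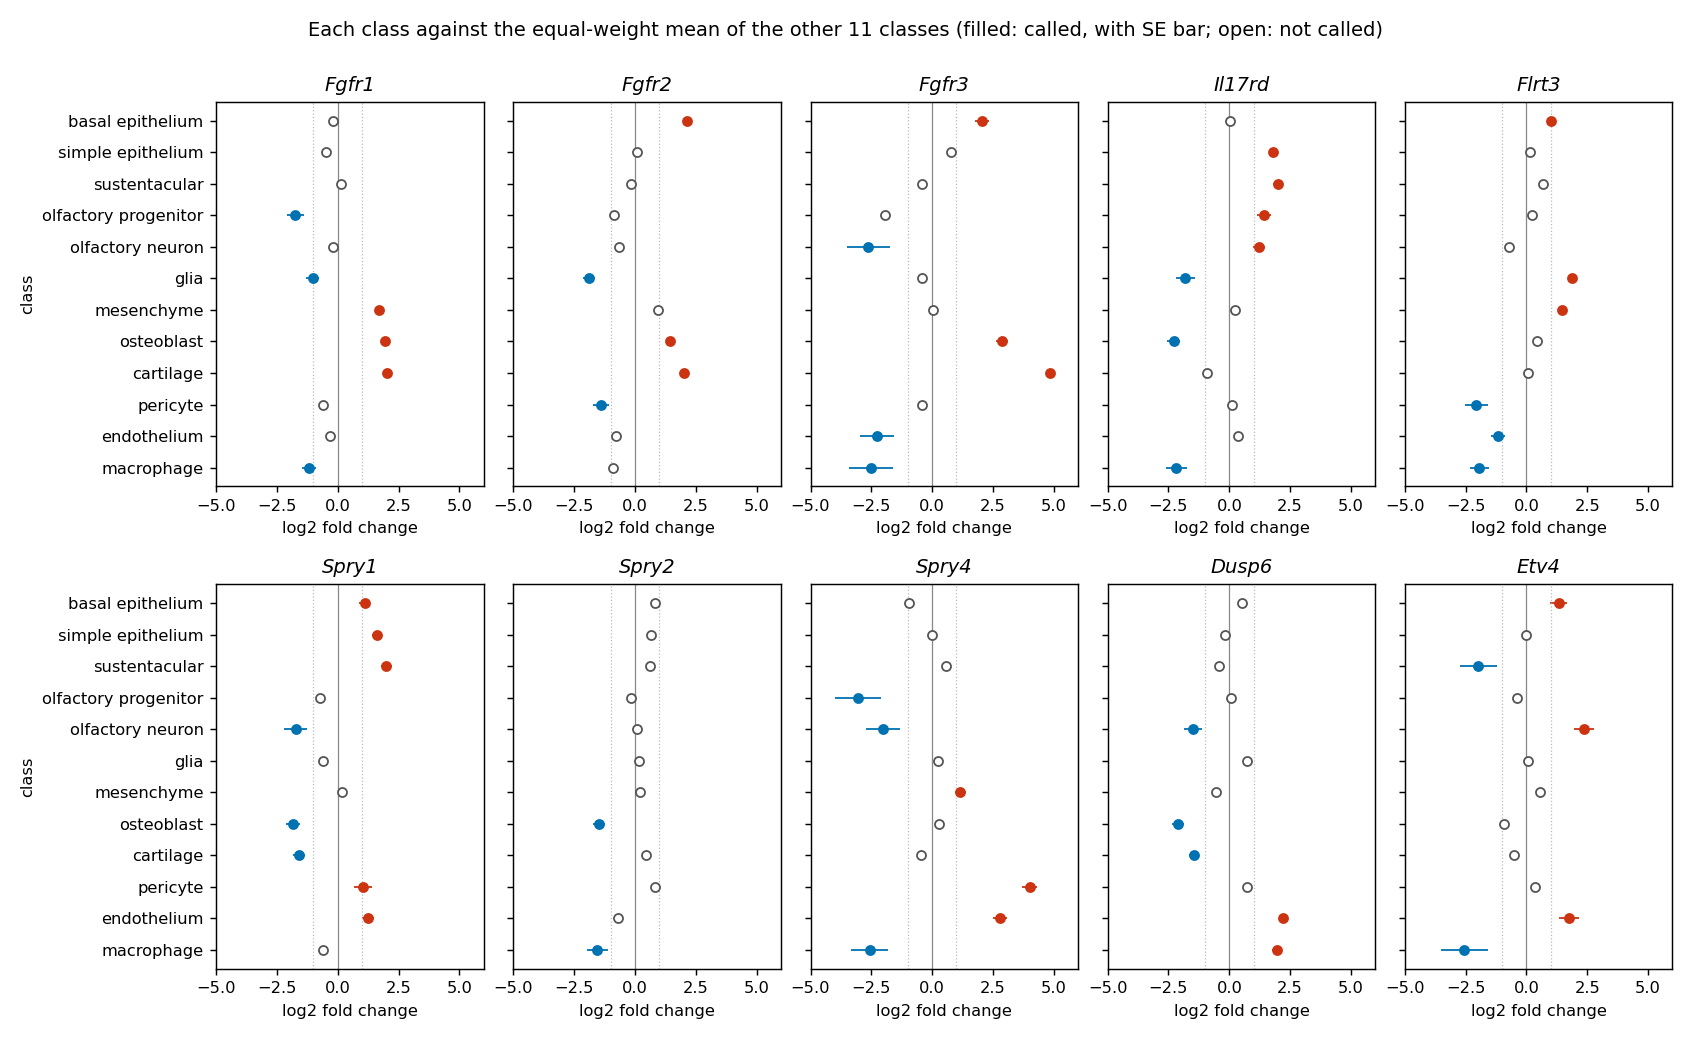
Log2 fold change of each member in each class against the mean of the other classes, with filled points and SE bars for called values and open points for the rest. Of the 120 points 56 are filled, and the farthest to the right is Fgfr3 in cartilage (4.85).

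Named pairs of classes were compared in the same fit, and members were called in 39 of 100 tests, 15 higher and 24 lower in the first class, where 17.5% of all gene tests were called, 8.12% higher and 9.42% lower. Basal epithelium against mesenchyme called 4 members (22.6% of all genes): Fgfr2 (log2 fold change 1.09, SE 0.19) and Fgfr3 (1.86, SE 0.27) were higher in the epithelium, and Fgfr1 (-1.72, SE 0.21) and Spry4 (-1.92, SE 0.37) lower. Fgfr2 came under the fold limit without WT replicate 1 (0.98) or WT replicate 2 (0.99), and without the capture block its adjusted p was 0.331. Simple epithelium against mesenchyme called 5 (27.2%), with Il17rd (1.42, SE 0.21) and Spry1 (1.30, SE 0.22) higher and Fgfr1 (-1.98, SE 0.20), Flrt3 (-1.20, SE 0.19) and Spry4 (-1.08, SE 0.29) lower. Without WT replicate 4 Spry1 was at 0.99, and without WT replicate 5 Spry4 was at -0.91. Spry4 was at -0.80 with 1 more marker in every gate and at -0.65 (adjusted p = 0.143) without cells of high depth. Against basal epithelium, simple epithelium had more Il17rd (1.61, SE 0.24) and less Fgfr2 (-1.89, SE 0.20), Fgfr3 (-1.16, SE 0.30) and Etv4 (-1.22, SE 0.45), 4 members beside 14.8% of all genes. The Etv4 difference was lost without WT replicate 1, 2 or 5 (adjusted p = 0.264, 0.0805 and 0.16) and by DESeq2 (0.0892), without cells of high depth (-0.98, adjusted p = 0.273), without TMM scaling (0.057) and with at least 50 cells per sum (0.0537), and that of Fgfr3 without WT replicate 2 (0.074) or WT replicate 4 (-0.83). Without the capture block Etv4, Fgfr3 and Fgfr2 were not called between the epithelia (adjusted p = 0.181, 0.0533 and 0.0861). Sustentacular cells, which are nested in the simple epithelial gate, differed from the rest of it in 0 of 10 members by edgeR (1.3% of all genes called), with 3 at an unadjusted p under 0.05 and 0 called by DESeq2.

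Among the skeletal classes, cartilage against mesenchyme called 5 members (13.4% of all genes). Fgfr3 was higher in cartilage (4.43, SE 0.23, adjusted p = 7.23e-19), and Spry1 (-1.64, SE 0.26), Spry4 (-1.48, SE 0.28), Flrt3 (-1.28, SE 0.18) and Il17rd (-1.05, SE 0.22) were lower, the last at -0.89 without WT replicate 1 and not called without the capture block (adjusted p = 0.154). Osteoblasts against mesenchyme called 6 (12.6%), with Fgfr3 higher (2.61, SE 0.24, adjusted p = 3.19e-11) and 5 modulators and targets lower: Il17rd (-2.33, SE 0.29), Spry1 (-1.87, SE 0.31), Spry2 (-1.55, SE 0.27), Dusp6 (-1.44, SE 0.29) and Etv4 (-1.35, SE 0.49). Etv4 lost its call there without WT replicate 1, 2 or 5 (adjusted p = 0.127, 0.158 and 0.0596), by DESeq2 (0.0652), without the capture block (0.209) and with 1 more marker in every gate (0.0593). The median log2 fold change of the 10 members was -0.92 in cartilage and -1.15 in osteoblasts against mesenchyme, where that of all genes was -0.0018 and -0.06. Cartilage against osteoblasts called 3 (12.7%), all higher in cartilage (7.09% of all genes were): Fgfr3 (1.82, SE 0.22), Spry2 (1.79, SE 0.28) and Il17rd (1.27, SE 0.32), the last not called without the capture block (adjusted p = 0.0919).

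In the neural classes, progenitors against olfactory neurons called 3 members (19.4% of all genes), with Dusp6 higher in progenitors (1.42, SE 0.50) and Etv4 (-2.53, SE 0.80) and Fgfr1 (-1.41, SE 0.44) lower. Each was lost without 1 capture, Etv4 without WT replicate 1 (adjusted p = 0.0625) or 2 (-1.34, adjusted p = 0.369), Dusp6 without WT replicate 1 (0.0746) or 4 (0.0871), and Fgfr1 without WT replicate 2 (-0.95, adjusted p = 0.235) or 5 (0.0626). With 1 more marker in every gate Fgfr1 was at -0.21 (adjusted p = 0.847) and Dusp6 at 1.20 (adjusted p = 0.136), so neither was called. Glia against olfactory neurons called 6 (35.1%). Flrt3 (2.39, SE 0.32) and Dusp6 (2.01, SE 0.42) were higher and Il17rd lower (-2.77, SE 0.43, and -4.04 without WT replicate 1) in glia, and these 3 were kept under every alternative run. Spry4 (2.07), Etv4 (-2.11) and Fgfr2 (-1.14) were called too, but Spry4 was lost without WT replicate 1 (1.29, adjusted p = 0.332) or 4 (0.0723), Etv4 without WT replicate 2 (-1.53, adjusted p = 0.123) and Fgfr2 without WT replicate 1 (-0.97) or 2 (-0.99). Spry4 was lost also by DESeq2 (0.052) and without cells of high depth (0.118), and Fgfr2 without the capture block (0.33) and with 1 more marker in every gate (-0.66, adjusted p = 0.146). Endothelium against pericytes called 3 (16.2%): Dusp6 was higher (1.37, SE 0.34) and Spry2 (-1.39, SE 0.46) and Spry4 (-1.12, SE 0.34) lower in endothelium. Leaving out single captures ended these calls, Dusp6 without WT replicate 2 (adjusted p = 0.0593), Spry2 without any 1 of the 4 (from 0.0568 to 0.129) and Spry4 without WT replicate 1 (0.2), 4 (0.0518) or 5 (0.0533). Without cells of high depth none of these 3 was called (adjusted p = 0.106, 0.143 and 0.0978), and without the capture block Spry2 and Spry4 were not (0.0739 and 0.0638).

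Mesenchyme was divided further by pairs of genes with regional expression, taking cells with at least 1 UMI of both genes of 1 pair only. Each sub-gate was compared with the mean of the other 4 over the WT captures. Of the members 9 of 10 passed the filter (Fgfr3 did not), and they were called in 9 of 45 tests, 5 higher and 4 lower, where 3% of all gene tests were called, 1.7% higher and 1.3% lower. The sub-gates held 40 to 579 cells per capture. The number of calls was 2 without the capture block and 4 with 1 more marker in every gate.

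The Foxp2/Erg sub-gate called 4 members (3.47% of all genes). Its Fgfr2 level was 101.1, 237.8, 283.0 and 291.1 CPM in WT replicates 1, 2, 4 and 5, beside 31.0, 92.0, 126.5 and 106.4 CPM in Aldh1a2/Cldn11 cells, so that Foxp2/Erg was higher within every capture. The log2 fold change of Fgfr2 was 1.08 (SE 0.11, adjusted p = 4.57e-07), and just under the fold limit without WT replicate 1 (adjusted p = 9.84e-08). With sums of at least 10 cells it was 0.83, with at least 50 cells 0.95 and with 1 more marker in every gate 0.89. Etv4 (-1.82, SE 0.49), Dusp6 (-1.46, SE 0.31) and Spry4 (-1.23, SE 0.31) were called lower, and Spry1 (-0.93) and Spry2 (-0.50) were not called. All 4 calls rest on the capture block: without it the adjusted p was 0.176 for Fgfr2, 0.17 for Etv4, 0.0619 for Dusp6 and 0.0928 for Spry4. The log2 fold changes were then 1.09, -1.65, -1.42 and -1.12. With the block, Etv4 was lost without WT replicate 5 (-1.29, adjusted p = 0.208) and Spry4 without WT replicate 2 (0.052) or 5 (0.178).

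Shox2/Barx1 cells went the other way for Etv4, with 3 members called (0.967% of all genes). Etv4 was at 5.4, 28.4, 22.9 and 20.3 CPM there and at 4.3, 3.2, 1.8 and 1.7 CPM in Foxp2/Erg cells, with no overlap. The log2 fold changes were 1.79 for Etv4 (SE 0.38, adjusted p = 0.0119), 1.06 for Spry1 (SE 0.23, adjusted p = 0.0122) and 1.05 for Spry4 (SE 0.27, adjusted p = 0.0372). None of the 3 outlasted every leave-out: Etv4 was lost without WT replicate 2, 4 or 5 (adjusted p = 0.0816, 0.0607 and 0.114), Spry4 without 2, 4 or 5 (0.186, 0.133 and 0.341) and Spry1 without WT replicate 4 (0.85, adjusted p = 0.0765). Without the capture block none of the 3 was called (0.145 for Etv4, 0.218 for Spry4 and 0.584 for Spry1). With 1 more marker in every gate Etv4 (1.43, adjusted p = 0.266) and Spry4 (0.0772) were lost, and without cells of high depth Spry1 (0.80) and Spry4 (0.92). In Aldh1a2/Cldn11 cells Spry4 was called higher (1.03, SE 0.25, adjusted p = 0.00825, with 3.91% of all genes called), and lost without WT replicate 2 (0.0642) or 5 (0.113), with at least 50 cells per sum (0.91) and with 1 more marker in every gate (0.94). In Osr1/Mab21l2 cells Spry4 was called lower, at 4.8, 4.9, 5.4 and 7.4 CPM (-1.20, SE 0.27, adjusted p = 0.00307, with 3.89% of all genes called), a call lost with 1 more marker in every gate (-0.71, adjusted p = 0.107) and with WT replicate 3 in place of 4 (-0.96). Pax9/Mecom cells called 0 members by edgeR and 0 by DESeq2 (2.76% of all genes called by edgeR). Of 9 members tested there, 4 were at an unadjusted p under 0.05, and 2 of them, Fgfr1 (0.39, adjusted p = 0.00651) and Il17rd (0.67, adjusted p = 0.0154), passed the adjusted threshold and missed the fold limit alone. With sums of at least 10 cells, which adds a Sox2/Sox18 sub-gate, the Spry4 values of Foxp2/Erg and Osr1/Mab21l2 cells turned to 0.20 and 0.21, and those of Aldh1a2/Cldn11 and Shox2/Barx1 cells moved to 2.35 and 2.38.

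**Figure D5:**
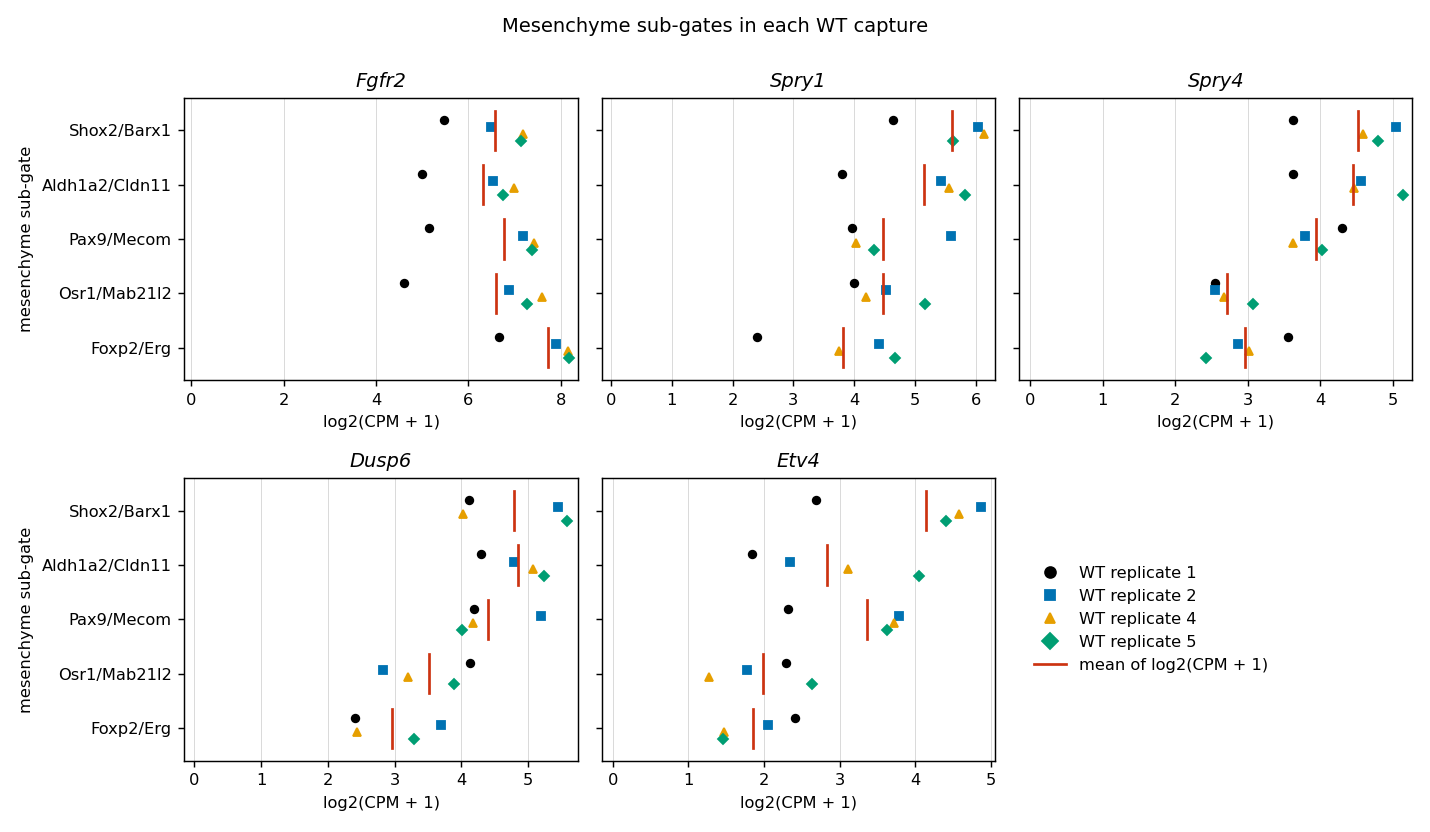
Levels of Fgfr2, Spry1, Spry4, Dusp6 and Etv4, as log2(CPM + 1), in the 5 mesenchymal sub-gates, 1 point per WT capture with a symbol for each replicate and a bar at the mean of log2(CPM + 1). Fgfr2 has its highest mean in Foxp2/Erg cells (101.1 to 291.1 CPM), and Etv4 its lowest (1.7 to 4.3 CPM).

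The 2 ProKR2iCre/R26tdTomato libraries were read one at a time, with exact Poisson 95% intervals that cover counting error only. Fgfr3 was at 69.9 CPM in the cartilage of library 1, Dusp6 at 143.2 CPM and Spry4 at 20.6 CPM in its endothelium, and Il17rd at 55.5 CPM and Spry1 at 94.3 CPM in its simple epithelium. In mesenchyme Fgfr1 was at 210.5 CPM in library 1 and 308.2 CPM in library 2, and Fgfr2 at 65.0 and 221.6 CPM.

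Terminal nerve cells, which include the migrating GnRH neurons, were numerous enough only in library 2, with 41 cells beside 153 olfactory neurons. The 95% intervals were apart for 1 of 10 members (16.5% of all genes compared). Il17rd was at 28.9 CPM (95% interval 19.6 to 41.0, 31 UMIs) in terminal nerve cells and 13.97 CPM (9.89 to 19.2, 38 UMIs) in olfactory neurons, a ratio of 2.07 (1.25 to 3.42). With 1 more marker in every gate the ratio was 1.55 (0.828 to 2.76), and without cells of high depth 1.75 (0.822 to 3.49). The extra marker left 21 terminal nerve cells beside 169 olfactory neurons. Terminal nerve cells are drawn from those that met the olfactory neuron gate, so cells that miss the marker stay among the olfactory neurons. How far the 2 classes mix was not tested. With the extra marker Flrt3 was the 1 member apart, at 21.1 and 7.26 CPM, a ratio of 2.90 (1.35 to 5.98), so which member stood apart depended on the gate. Etv4 was at 64.4 and 56.6 CPM, a ratio of 1.14 (0.84 to 1.52), and Fgfr2 at 74.6 and 58.5 CPM, a ratio of 1.28 (0.963 to 1.68). With the extra marker the Etv4 ratio was 0.83 (0.55 to 1.22). That of Fgfr2 was then 1.50 (1.09 to 2.04), at 87.6 and 58.4 CPM, though the intervals of its 2 levels overlapped. Fgfr3 had 0 UMIs in both classes.

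In the same library, glia (59 cells) and olfactory neurons had intervals apart for 6 of 10 members. That is near the share of all genes compared (53.8%), so the count is not particular to the members. Dusp6 was higher in glia by a ratio of 8.71 (4.79 to 16.95) and Fgfr2 by 3.19 (2.60 to 3.93), and Etv4 had a ratio of 0.08 (0.03 to 0.19). The Fgfr2 ratio was above 1 where glia had been called lower in the WT captures, and the Fgfr2 level in glia was 186.6 CPM in library 2 and 4.7 CPM in library 1. Osteoblasts (56 cells) against mesenchyme (546 cells) gave 3 of 10 members apart (15.2% of all genes compared), with Fgfr1 higher (1.35, 1.18 to 1.54) and Fgfr2 (0.67, 0.53 to 0.83) and Flrt3 (0.59, 0.40 to 0.86) lower in osteoblasts. With 1 more marker in every gate, which left 23 osteoblasts, the Fgfr1 levels of 384.3 and 302.2 CPM had overlapping intervals (ratio 1.27, 1.03 to 1.56), while Fgfr2 and Flrt3 stayed apart. The 6 members called between these classes in the WT captures were not among them. The osteoblasts of library 2 held Bglap at 0 and Dmp1 at 1.69 CPM, and the part of this in the differences was not tested. Of those called lower there, Il17rd had a ratio of 1.25 (0.81 to 1.84), Spry1 of 0.73 (0.41 to 1.23), Spry2 of 0.93 (0.41 to 1.82), Dusp6 of 0.93 (0.51 to 1.57) and Etv4 of 1.94 (0.84 to 3.94). Fgfr3, called higher there, had a ratio of 2.50 (0.85 to 6.1).

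Other genes of the pathway were read in the class comparisons by 5 lists. Of the 22 genes of the FGF family 13 were tested, with 41 higher and 11 lower calls in 156 tests (33.3%, where 18.1% of all gene tests were called). The family includes Fgf11, Fgf12, Fgf13 and Fgf14, intracellular homologous factors that are not ligands of the receptors. Of the other 18, the secreted FGFs, 10 were tested, with 33 higher and 7 lower calls in 120 tests. In mesenchyme the largest were Fgf10 (log2 fold change 3.48, 24.3 CPM ± 10.9 SD, n = 4), which binds the epithelial form of Fgfr2, Fgf2 (3.36) and Fgf7 (3.18). Basal epithelium was led by Fgf8 (5.58) and Fgf9 (3.22), ligands known from epithelial signalling centres, simple epithelium by Fgf21 (4.91), Fgf20 (4.29) and Fgf1 (2.93), and olfactory progenitors by Fgf15 (7.94, 95.3 CPM ± 73.0 SD, n = 3) and Fgf8 (4.70).

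Of 4 other receptors and co-receptors 2 were tested, with 3 higher and 4 lower calls in 24 tests (29.2%). Both were called higher in cartilage, Fgfr4 by 4.75 (21.5 CPM ± 8.06 SD, n = 4) and Fgfrl1, a receptor-like protein without a kinase, by 2.99 (62.3 CPM ± 23.5 SD, n = 4). Of 12 other feedback genes and targets 11 were tested, with 20 higher and 18 lower calls in 132 tests (28.8%). Dusp4, a nuclear MAP kinase phosphatase, was higher in olfactory neurons (3.23) and progenitors (3.10), and Dusp5 in simple epithelium (2.78) and sustentacular cells (2.64). Etv5 was higher in macrophages (1.48), where Etv4 had 2 UMIs.

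The adaptors and the MAP kinase cascade, which relay the signal of many receptors, were called least, with 9 higher and 4 lower calls in 192 tests over 16 of 17 genes (6.77%). They included Hras in basal epithelium (1.57), Mapk3 in endothelium (1.59) and Grb2 in macrophages (1.49). The 14 heparan sulfate genes, all tested, had 32 higher and 25 lower calls in 168 tests (33.9%). Gpc1 was higher in osteoblasts (2.38) and lower in endothelium (-4.14), Sdc1 was higher in basal epithelium (1.86) and Sdc2 in pericytes (2.35) and osteoblasts (2.17).

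Across the 12 class means of log2(CPM + 1), which share their captures and depth, the genes with a level of at least 20 CPM in some class and the most similar order were described for each member among 10455 genes. They were Gsc, Lum and Ism1 for Fgfr1 (Pearson r 0.956, 0.934 and 0.927), Phlda2, Pdcd4 and Slc27a3 for Fgfr2 (0.928, 0.905 and 0.901) and Nog, Phlda2 and Slc30a5 for Fgfr3 (0.959, 0.926 and 0.897). The single most similar gene was Fbxl19 for Il17rd (0.935), Zfp1 for Flrt3 (0.927), Slc25a25 for Spry1 (0.919), Zmym5 for Spry2 (0.902), Uaca for Spry4 (0.938), Plekhg5 for Dusp6 (0.927) and Mark4 for Etv4 (0.885). Among the members themselves the closest were Fgfr2 and Fgfr3 (0.826) and Fgfr1 and Fgfr2 (0.752), then Fgfr1 and Fgfr3 (0.688) and Il17rd and Spry2 (0.638). Fgfr1 and Dusp6 ran most nearly opposite (-0.643). All of these are descriptions over 12 points.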

How the data were processed

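The deposited values are counts. Per the file headers, the authors counted UMIs per gene and barcode with Cell Ranger 6.0.1 (WT replicate 1), 7.0.0 (WT replicates 2 to 5) and 6.1.2 (both ProKR2iCre/R26tdTomato libraries), while the submitters' processing notes name Cell Ranger 4, Seurat 4.3.0 and mm10. The annotation and the handling of intronic reads are not given in the sources used here. The files list 31053 or 32285 genes, and 30355 symbols shared by all files and unique in each were used, which hold 99.2% to 99.9% of the UMIs.

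Total UMIs ran from 16773781 to 89800259 per library. Kept cells met a gate when at least 3 of its markers had a UMI and its score was at least 1.25 times the next. Cells whose best scores were closer were left out, with no doublet caller. Where olfactory progenitor and olfactory neuron led, the margin was taken against the class after them, so cells with both marker sets were kept. Sustentacular and terminal nerve cells were taken from simple epithelium and olfactory neurons by at least 3 of their own markers, without a margin. The sums held 22 to 4218 cells and 201683 to 26755009 UMIs. Python 3.11.15 (numpy 2.4.6, pandas 2.3.3, scipy 1.17.1) formed the sums, and edgeR 4.0.16 in R 4.3.3 (TMM, filterByExpr, glmQLFit, glmQLFTest) tested them with Benjamini-Hochberg adjustment and a capture block, gate genes left out. DESeq2 1.42.0, other filters, gates and scalings, and leaving out each capture were the alternatives. The SE was taken as the size of the log2 fold change over the root of F, and is given for called values. A gene with no UMI in 1 class has no mean log level over classes, and 1.78% of class tests, all with a lower level by a log2 fold change of at least 1 in size, were uninformative. On simulated counts the procedure recovered 199 of 200 changed genes among 13506, with 1 false call. The simulation held no capture effect and no class difference except in cartilage. Its changes were all above the fold limit, in genes with more than a few counts. It therefore gives no error rate for the members.

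The labels tie no capture to 1 animal, so p-values measure no spread between animals. With the capture as a block they measure the spread of class sums left after class and capture. That spread is pooled over all classes with the sums taken as independent, so it rests on more sums than there are captures. Class sums of 1 capture are paired because they come from 1 suspension, and their deviations from class means correlated (median r 0.394, 232 of 234 pairs over 0.1) beside a median of -0.148 for different captures (134 of 693 pairs over 0.1), which centring on class means pushes below 0. Intervals and the UMI sums behind them cover counting error only.

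The members, lists and named pairs were chosen with earlier results of these data known, and the scoring of the gates after the files were seen, without reading the members. All members are named. From the pathway lists, up to 3 genes with the largest change among those called in a class are named, and for likeness the 3 genes with the highest r.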

Additional observations from a re-analysis of the deposited data

Results flagged for a closer look

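Within a class of 4 captures, 4 of 90 member and class combinations held a capture far from the others by Dixon's test (gap over range above 0.829), where chance gives about 1 in 20. Spry4 in basal epithelium was at 3.20 CPM in WT replicate 1, on 9 UMIs, beside 1.60 to 1.78 CPM in the other captures. Etv4 in cartilage was at 4.12 CPM in WT replicate 2, on 39 UMIs, beside 2.23 to 2.37 CPM. WT replicate 1 alone held any Fgfr3 in endothelium (1.30 CPM, 4 UMIs) and any Etv4 in macrophages (1.28 CPM, 2 UMIs).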

How the results depend on the processing

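Of the 104 called values, 52 kept their call under every alternative run and 66 under every fit without 1 capture. Over all values and alternatives, 1246 of 1404 kept direction and call, 156 lost the call and 2 reversed. The largest numbers of lost calls were 22 of 104 with no replicate block, 21 each without WT replicate 1 or WT replicate 2, and 20 of 95 without high-depth cells, and for most of them the cause was not tested.

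The 56 class calls became 32 (of 60 tests) with at least 50 cells per sum, where 6 classes remain, 51 with no replicate block, 55 by DESeq2, and 48 to 53 without 1 capture. The 39 calls of named pairs became 30 with no replicate block, 36 by DESeq2 and 30 to 37 without 1 capture. The 9 sub-gate calls became 2 with no replicate block, 4 with 1 more marker in every gate, 10 by DESeq2, and 5 (without WT replicate 2) to 10 without 1 capture. With sums of at least 10 cells a Sox2/Sox18 sub-gate joined, and Spry4 in Foxp2/Erg (0.20, adjusted p = 0.865) and in Osr1/Mab21l2 (0.21, adjusted p = 0.902) reversed. The ProKR2iCre/R26tdTomato comparison of terminal nerve cells and olfactory neurons had 1 member apart, and 0 without high-depth cells. Sums of a few UMIs limit the lower calls of Fgfr3, Spry4 and Etv4.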
